A study of Mus musculus with 194 samples.

Results

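The lateral hypothalamus (LH) of mice given cocaine repeatedly was compared with the LH of mice given cocaine once. The 16 libraries compared were all LH libraries of these 2 treatments, 8 mice in each, and make up 8.25% of a series that spans several brain structures. The choice used the labels of structure and treatment and no measured value, and was made with earlier results of these data known. All mice were wild-type C57BL/6OLAHSD males. Cocaine was given at 20 mg/kg after habituation to saline injections on 3 days. In each treatment 2 mice were taken at each of 0, 1, 2 and 4 h. At 1, 2 and 4 h the acute mice had received 1 dose and the repeated mice (labelled Chronic) 5 daily doses. The 0 h mice were controls taken from the home cage. Those of the acute group had received no cocaine, and those of the repeated group had received 4 doses, the last of them 24 h earlier. Every library was sequenced in the same run. The acute mice came from the cohort numbered 20 and the repeated mice from the cohort numbered 17, so that cohort and treatment cannot be told apart in any value given here. Tissue was cut from coronal slices of 400 µm, so each library holds a mixture of all cells of the dissected block.

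The LH is a hub of feeding, arousal and reward. Its hallmark neurons make orexin (Hcrt) or melanin-concentrating hormone (Pmch), and they lie among glutamatergic and GABAergic neurons that project to the ventral tegmental area and other reward structures. Orexin acts through the receptors Hcrtr1 and Hcrtr2 and is known for its part in arousal and in drug seeking. Cocaine blocks the reuptake of dopamine, noradrenaline and serotonin, evokes immediate early genes in many of its target areas and raises circulating glucocorticoids.

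The libraries matched their label. Hcrt lay between 4157 and 7783 CPM (a library's counts scaled to a common total, with edgeR's trimmed mean of M values) in the 16 LH libraries, against 270.0 to 457 CPM in 16 amygdala libraries and 0 to 0.409 CPM in 16 libraries of the dorsal striatum. Pmch lay between 4372 and 8775 CPM in the LH, between 508 and 831 CPM in the amygdala and at no more than 2.83 CPM in the dorsal striatum. The source of the Hcrt and Pmch counts in the amygdala libraries, which shared the run of the LH, was not tested. The comparisons of the LH with the amygdala below carry this limit. Total counts were 2810642 to 4137331 in the acute and 2400009 to 4731726 in the repeated libraries. On the first principal component, which held 12.9% of the variance, the acute libraries lay between -12.4 and -8.8 and the repeated libraries between 4.1 and 24.7, and the 2 repeated libraries at 0 h lay farthest out. Counts over all genes are therefore also given without both of these libraries, and for named genes that were then no longer called this is said beside their value.

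A gene was called when the edgeR quasi-likelihood test, with time as covariate, gave a Benjamini-Hochberg adjusted p under 0.05 and a fold change over 1.2. Of 12813 genes tested, 248 were higher in the repeated mice (1.94%) and 335 were lower (2.61%), 4.55% in all. The changes were mostly small, with a median absolute log2 fold change of 0.36 among the called genes. An unadjusted p under 0.05 was found for 3054 genes (23.8%). Only 17 genes were more than 2-fold higher and 7 more than 2-fold lower. Every repeated library was above every acute library for 92 of the genes tested (0.718%) and below every acute library for 84 (0.656%). Of the 583 called genes, 284 stayed called in each of the 16 fits that left out 1 library. Without both repeated 0 h libraries 177 genes were higher (1.38%) and 219 lower (1.71%), and 313 of the 583 called genes were called again in the same direction. DESeq2, fitted to the same counts, called 207 genes higher (1.62%) and 281 lower (2.19%).

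The smallest adjusted p belonged to genes that rose. Metrn encodes meteorin, a secreted factor made by glia and neural progenitors that acts on glial differentiation and neurite growth. It was at 84.3 CPM in the lowest, 103 in the median and 117 in the highest acute library, against 129.9, 231 and 248 CPM in the repeated libraries. The ranges did not overlap, and the log2 fold change was 1.10 ± 0.07 (SE, n = 8 mice in each treatment, adjusted p = 3.0e-14). Akt1s1 encodes PRAS40, a substrate of the kinase Akt that restrains mTOR complex 1. Its lowest, median and highest values were 17, 21.2 and 34.3 CPM in acute and 37.0, 68.7 and 80.7 CPM in repeated libraries. Every repeated mouse was again above every acute mouse, with a log2 fold change of 1.51 ± 0.10 (adjusted p = 5.2e-14), which is 2.84-fold.

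Ppp1r37, a regulatory subunit of protein phosphatase 1, ran from 46.5 to 58.1 CPM (median 50.7) in acute and from 74.0 to 153 CPM (median 113) in repeated libraries. Prmt1, the main enzyme for asymmetric arginine methylation, ran from 45 to 67.0 CPM (median 59.6) in acute and from 75.8 to 149 CPM (median 136) in repeated libraries. Neither gene's ranges overlapped, and both had a log2 fold change of 1.12 (SE 0.08 for Ppp1r37 and 0.09 for Prmt1, adjusted p = 5.2e-14 and 3.0e-12). Cadm4, an adhesion molecule between axons and glia, rose by 0.78 ± 0.07 on the log2 scale (adjusted p = 2.2e-11), and Prrc2a, a reader of methylated adenosine in RNA, rose by 0.74 ± 0.08 (adjusted p = 5.0e-09). In these 2 genes the highest acute library (181 and 221.7 CPM) was above the lowest repeated library (165 and 214 CPM). The repeated 4 h replicate 1 was the lowest repeated library for Metrn, Akt1s1, Ppp1r37, Prmt1, Cadm4 and Prrc2a. All 6 genes stayed called without it, without any other single library and without the repeated 0 h libraries. Of the 8 genes with the smallest adjusted p, 4 (Akt1s1, Prmt1, Ppp1r37 and Cadm4) lie on chromosome 7, on which 4.86% of 988 tested genes were called in all. Akt1s1 overlaps an exon of Tbc1d17 on the opposite strand, and Metrn overlaps Gm26694, and whether the counting used strand is not given in the sources used here.

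**Figure D1:**
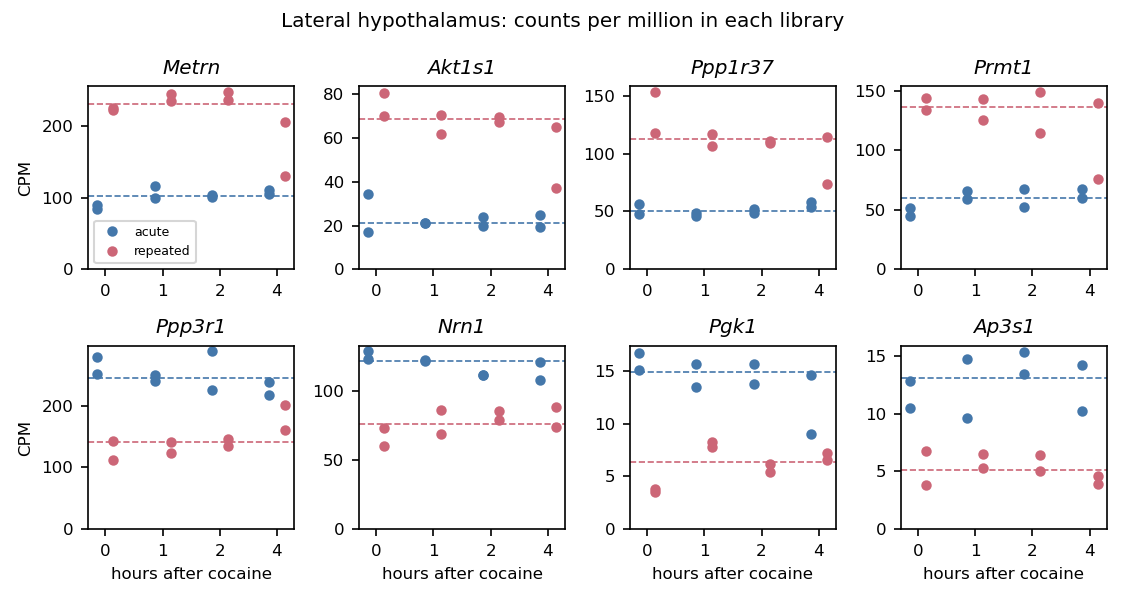
Scaled counts (CPM, vertical axis, from 0) by hours after cocaine (horizontal axis) for 8 genes of the lateral hypothalamus. Each point is 1 mouse, blue for acute and red for repeated, and the dashed lines are the medians of 8 mice. In Metrn, Akt1s1, Ppp1r37, Prmt1, Ppp3r1, Nrn1, Pgk1 and Ap3s1 no repeated mouse lies within the acute range, and repeated 4 h replicate 1 is the low red point in the upper row.

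Among the genes that fell, Ppp3r1 and Nrn1 had the smallest adjusted p. Ppp3r1 encodes the regulatory subunit of calcineurin, the calcium-activated phosphatase of synapses. It was at 217, 245 and 288 CPM (lowest, median and highest) in acute and at 111, 142 and 201 CPM in repeated libraries. Nrn1 encodes neuritin, a membrane-anchored, activity-regulated factor of neurite and synapse growth, and it was at 108, 122 and 129 CPM in acute and at 59.9, 76.5 and 88.7 CPM in repeated libraries. Neither gene's ranges overlapped. The log2 fold change was -0.78 ± 0.07 for Ppp3r1 (adjusted p = 6.9e-11) and -0.62 ± 0.06 for Nrn1 (adjusted p = 4.8e-09).

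Larger falls were found in genes of lower level. Pgk1, a glycolytic kinase that makes ATP, lay between 9.03 and 16.7 CPM (median 14.8) in acute and between 3.54 and 8.25 CPM (median 6.35) in repeated libraries, a log2 fold change of -1.20 ± 0.17 (adjusted p = 3.2e-06). Ap3s1, a subunit of the AP-3 vesicle adaptor, fell by 1.24 ± 0.17, Hnrnpa1, an RNA-binding splicing regulator, by 1.22 ± 0.20 and Mrpl23, a mitochondrial ribosomal protein, by 1.21 ± 0.19 on the log2 scale (adjusted p = 2.2e-06, 4.6e-05 and 2.2e-05). In all 4 genes the ranges of the treatments did not overlap. Taf2, a subunit of the general transcription factor TFIID, fell by 0.85 ± 0.14 (adjusted p = 4.6e-05) and Rnps1, of the exon junction complex, by 0.84 ± 0.21 (adjusted p = 0.0069), the latter not called without the repeated 0 h libraries (log2 fold change -0.66). Krt12, a keratin, had the most negative fold change, -1.59 ± 0.35 (adjusted p = 0.0024), at a median of 3.79 CPM in acute and 1.17 CPM in repeated libraries. Hmgn2, which binds nucleosomes, fell by 1.23 ± 0.35 (adjusted p = 0.02), Akr1b3, aldose reductase, by 0.91 ± 0.28 (adjusted p = 0.03), and Acot3, an acyl-CoA thioesterase, by 1.16 ± 0.39 (adjusted p = 0.049). These 3 calls were held in 12, 8 and 3 of the 16 fits without 1 library, in which the adjusted p reached 0.081, 0.093 and 0.16.

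Several of the largest falls were in genes with processed pseudogene copies, whose reads the authors' counting could have split. Hmgn2 had 11 such copies of at least 95% identity, Hnrnpa1 9, Pgk1 4, Ap3s1 and Akr1b3 3 each, and Mrpl23 and Rnps1 1 each. Of the 23 genes that fell by over 0.7 on the log2 scale and were matched to the annotation, 10 had a copy, and of the 32 that rose by as much, 0 had one. Over all genes tested the share with a copy was 8.27%. The levels of these 7 genes are therefore uncertain, and the part of the copies in their falls was not tested.

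The largest rises were likewise in genes of low level. Clec2d, a C-type lectin ligand of a natural killer cell receptor, was at 0.355, 1.16 and 3.75 CPM (lowest, median and highest) in acute and at 3.50, 6.34 and 8.07 CPM in repeated libraries. The ranges overlapped by a narrow margin, and the log2 fold change was 1.99 ± 0.31 (adjusted p = 2.2e-05), which is 3.97-fold. Lmnb1, lamin B1 of the nuclear envelope, rose by 1.12 ± 0.28 (adjusted p = 0.0061), Matn4, a matrilin of the extracellular matrix, by 1.12 ± 0.21 (adjusted p = 4.2e-04) and 8430408G22Rik by 1.5 ± 0.38 (adjusted p = 0.0081). These 4 genes stayed called without any single library. Pln, phospholamban, an inhibitor of the calcium pump of the endoplasmic reticulum, rose by 1.55 ± 0.39 (adjusted p = 0.0076) and lost its call without repeated 2 h replicate 1 (adjusted p = 0.051) and without both repeated 0 h libraries (log2 fold change 1.26). Rhod, a small GTPase, Ccdc78, Wif1, a secreted inhibitor of Wnt signals, and AU021092 had log2 fold changes of 1.48, 1.24, 1.16 and 1.31, and their calls were held in 10, 11, 6 and 4 of the 16 fits without 1 library, in which the adjusted p reached 0.092, 0.079, 0.18 and 0.12.

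A property that the choice of libraries did not use moved with the treatments. In each library the deviation of a gene's log2 CPM from its mean over the 16 libraries was set against the GC content of the last 500 bases of its transcript. This was the gene's longest protein-coding transcript, or its longest transcript where no protein-coding one was annotated. The rank correlation across genes was between -0.365 and -0.101 in the 8 acute libraries and between 0.177 and 0.376 in the 8 repeated libraries. The genes called higher had a median GC content of 52.6% in this stretch and the genes called lower one of 35.2%, against 43.8% in genes not called. Among the 2587 genes with a GC content of 18.2 to 36.2%, 188 fell and 8 rose, and among the 2488 genes with 52.0 to 77.6%, 132 rose and 16 fell.

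When each library's dependence on GC content was taken into the fit as an offset, an alternative chosen after seeing the data, 146 genes were higher (1.14%) and 151 lower (1.18%), and 243 of the 583 called genes were called again in the same direction. With the offset and without both repeated 0 h libraries, 106 were higher (0.828%) and 109 lower (0.851%). Metrn, Akt1s1, Ppp1r37, Prmt1, Cadm4, Prrc2a, Ppp3r1, Nrn1, Pgk1 and Clec2d stayed called in both fits, with log2 fold changes under the offset of 1.02, 1.39, 1.00, 1.02, 0.71, 0.64, -0.69, -0.56, -1.20 and 2.00. Of the genes named above, Acot3, Rhod, Ccdc78 and AU021092 were not called with the offset (adjusted p = 0.13, 0.06, 0.051 and 0.099). For genes named below that lost their call with the offset, the value with the offset is given. Without both repeated 0 h libraries 45 of the 75 named genes called were called again. Among the 30 others Acot3, Rhod, Ccdc78, AU021092 and Wif1 had adjusted p of 0.13, 0.084, 0.14, 0.16 and 0.14 then.

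**Figure D2:**
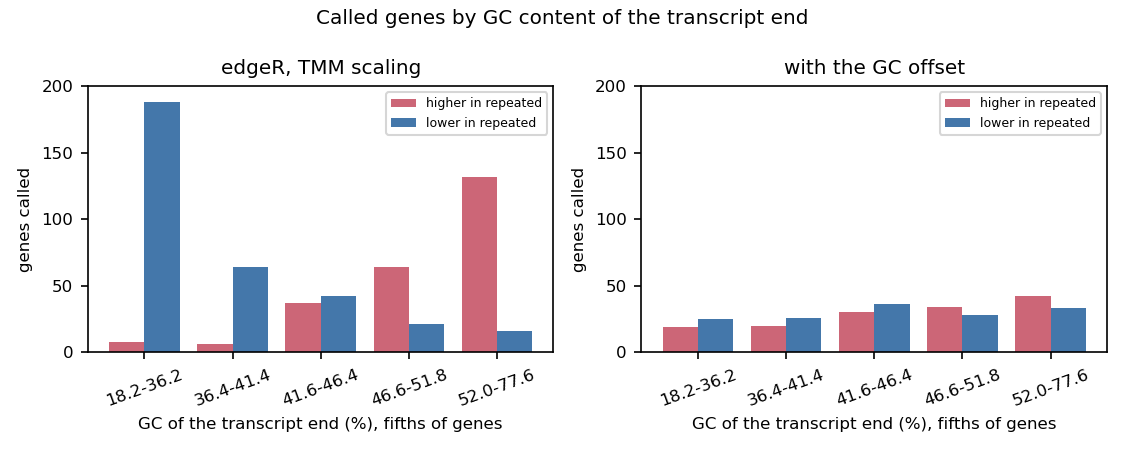
Number of genes called (vertical axis, from 0) in 5 bins of the tested genes by GC content of the transcript end in percent (horizontal axis), without an offset on the left and with the GC offset on the right. Red bars are genes higher and blue bars genes lower in the repeated mice. In the bin of lowest GC content 188 genes fell on the left and 25 on the right, and in the bin of highest GC content 132 and 42 rose.

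The peptide transmitters that define the LH held no call, where 4.55% of all genes were called. Of 16 LH neuropeptide genes tested, 0 were called by edgeR and 0 by DESeq2, 6 had an unadjusted p under 0.05 in edgeR (23.8% over all genes), the median log2 fold change was -0.02 against 0.00 over all genes, and the values ran from -0.23 to 0.54. Hcrt was at 4157, 5594 and 6527 CPM (lowest, median and highest) in acute and at 4592, 6331 and 7783 CPM in repeated libraries, and the ranges overlapped over most of their width (log2 fold change 0.11 ± 0.06, adjusted p = 0.31). For Pmch the log2 fold change was -0.20 ± 0.08 (adjusted p = 0.099). Cartpt, the appetite-suppressing CART peptide, had -0.18 ± 0.08, neurotensin (Nts) -0.04 ± 0.06, galanin (Gal) -0.05 ± 0.08, Penk -0.15 ± 0.08, Pdyn -0.10 ± 0.08 and somatostatin (Sst) -0.00 ± 0.05, with adjusted p between 0.13 and 0.99. Tac1 had 0.24 ± 0.10, Trh 0.11 ± 0.12, Adcyap1 0.10 ± 0.16, Grp 0.08 ± 0.28 and Nmb 0.00 ± 0.18.

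Npy, Cck and Crh lay nearest to the threshold, with log2 fold changes of -0.23 ± 0.08, -0.23 ± 0.08 and 0.54 ± 0.18 (adjusted p = 0.051, 0.056 and 0.054). With the GC offset these 3 peptides passed it (adjusted p = 0.015, 0.019 and 0.036), and without the repeated 0 h libraries Crh did (log2 fold change 0.76). Crh, corticotropin-releasing hormone, was at 6.43 to 12.5 CPM in acute and at 6.79 to 19.8 CPM in repeated libraries, and these ranges overlapped.

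Among 18 receptors of feeding and reward signals, 1 rose and 1 fell, where 1.94% of all genes were called higher and 2.61% lower, and the median log2 fold change was -0.02. Hcrtr1, the orexin receptor 1, was at 6.16, 11.1 and 14.2 CPM in acute and at 12.2, 15.1 and 21.2 CPM in repeated libraries (log2 fold change 0.56 ± 0.15, adjusted p = 0.012, and 0.056 with the GC offset). Htr2c, a serotonin receptor that curbs feeding, fell by 0.27 ± 0.07 (adjusted p = 0.0051, and 0.38 with the GC offset), and was not called without the repeated 0 h libraries (log2 fold change -0.26, adjusted p = 0.027, with a fold change under 1.2). The melanocortin receptor Mc4r had the largest value of the list, 0.70 ± 0.24 (adjusted p = 0.056), and was not called. Of 11 transcription factors that pattern the hypothalamus, 0 were called by edgeR or by DESeq2, 1 had an unadjusted p under 0.05 in edgeR (23.8% over all genes) and the median was -0.19. Of 9 genes for the fast transmitters and their loading, 1 fell (2.61% over all genes), Slc18a3, the vesicular transporter of acetylcholine (log2 fold change -0.95 ± 0.30, adjusted p = 0.036). That call was held in 6 of the 16 fits without 1 library, where the adjusted p reached 0.15, and was lost without both repeated 0 h libraries (adjusted p = 0.058). The vesicular glutamate transporter of hypothalamic neurons, Slc17a6, had -0.12 ± 0.05 (adjusted p = 0.11).

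**Figure D3:**
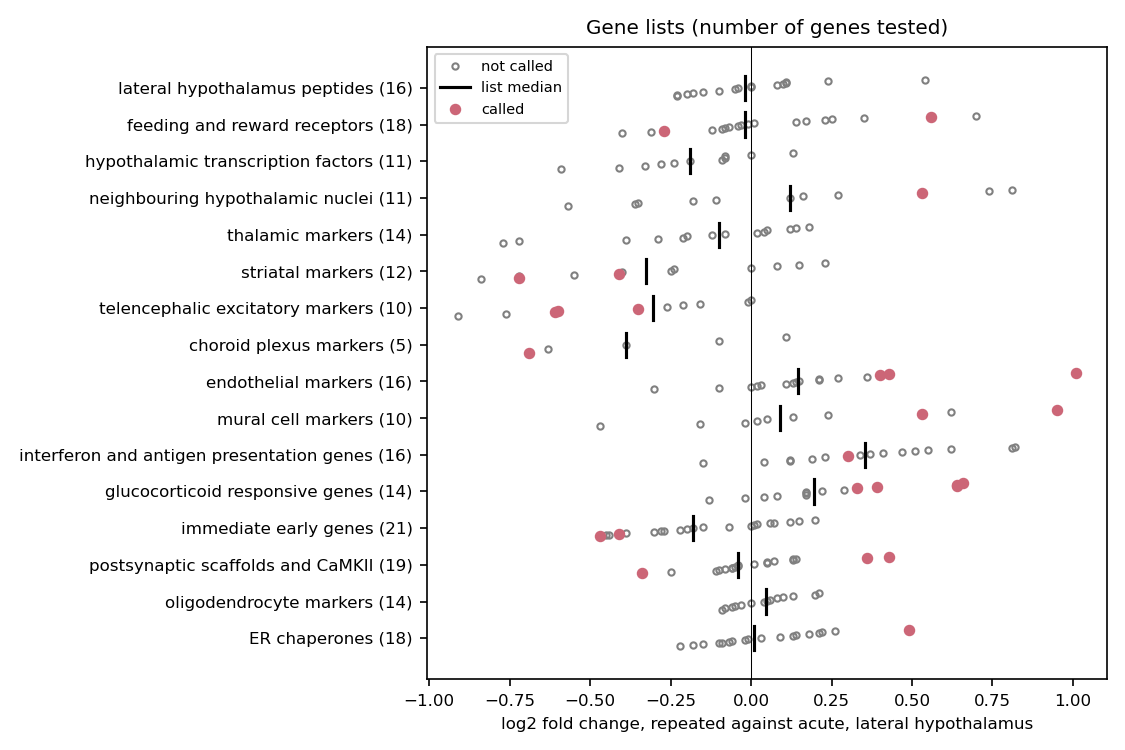
Log2 fold change of repeated against acute LH (horizontal axis) for the tested members of 16 gene lists (vertical axis, number of genes tested in brackets). Filled red points passed the test, open grey points did not, and the black bar is the median of the list. The peptides of the LH cluster near 0, 3 telencephalic and 2 striatal markers are red on the left, and 5 glucocorticoid-responsive genes are red on the right.

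Some genes that mark tissue around the LH were lower in the repeated mice. Of 10 markers of telencephalic excitatory neurons 3 fell and 0 rose, where 2.61% of all genes were called lower, and the median was -0.30. Tbr1, a transcription factor of glutamatergic cortical and amygdalar neurons, fell by 0.60 ± 0.14 (adjusted p = 0.0037), Neurod6 by 0.61 ± 0.18 (adjusted p = 0.024, and 0.14 with the GC offset) and Lamp5 by 0.35 ± 0.10 (adjusted p = 0.026). Slc17a7, their vesicular glutamate transporter, had a log2 fold change of -0.00 ± 0.07 (adjusted p = 0.99). Lamp5 does not mark excitatory neurons alone. In the acute dorsal striatum Lamp5 was at 111 to 143 CPM, where Slc17a7 was at 12.4 to 19.7 CPM. The 10 markers summed to 481 to 726 CPM in acute and 435 to 660.3 CPM in repeated libraries, so their ranges overlapped, and without both repeated 0 h libraries 1 of the 10 was called lower (Tbr1), and 0 when the GC offset was added.

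Some striatal markers were lower as well. Of 12 tested, 2 fell and 0 rose, where 2.61% of all genes were called lower, the median was -0.32, and the summed level was 342 to 449 CPM in acute and 327 to 383 CPM in repeated libraries. Ppp1r1b, which encodes DARPP-32, the phosphatase inhibitor that relays dopamine signals, was at 60.8, 72.1 and 84.4 CPM in acute and at 41.8, 53.9 and 69.5 CPM in repeated libraries. The ranges overlapped, and the log2 fold change was -0.41 ± 0.08 (adjusted p = 5.9e-04). This call was held without the repeated 0 h libraries and with the GC offset. Drd1 had -0.40 ± 0.20 and Drd2 0.23 ± 0.10 (adjusted p = 0.23 and 0.15). In the amygdala 9 of the 12 striatal markers were called lower and 0 higher, with a median of -0.51. Over all genes 4.26% were called lower and 4.59% higher there. In bulk tissue fewer cells of a type and less RNA per cell cannot be told apart. The part of the borders of the dissected block in these values was not tested.

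Of 5 choroid plexus markers tested, 1 fell (2.61% over all genes), Ttr, which encodes transthyretin, the thyroid hormone carrier of the cerebrospinal fluid. The list summed to 133 to 416 CPM in acute and 100.1 to 178 CPM in repeated libraries. Of 14 thalamic markers 0 were called by edgeR or DESeq2 and 4 had an unadjusted p under 0.05 in edgeR, against 23.8% of all genes (median -0.10). Among 11 genes of neighbouring hypothalamic nuclei 1 rose (1.94% over all genes), Ghrh, growth hormone-releasing hormone of the arcuate nucleus (log2 fold change 0.53 ± 0.17, adjusted p = 0.037, and 0.16 with the GC offset). Its call was held in 8 of the 16 fits without 1 library (adjusted p up to 0.11) and was lost without both repeated 0 h libraries (adjusted p = 0.23). With the GC offset Avp of this list was called lower (-0.71, adjusted p = 0.037).

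Some vessel markers were higher. Of 16 endothelial markers 3 rose and 0 fell, where 1.94% of all genes were called higher, and the median was 0.14. The summed level was 545, 639 and 693 CPM (lowest, median and highest) in acute and 689, 720.1 and 775 CPM in repeated libraries. The lowest repeated value lay just within the acute range. Ly6c1 and Ly6a, surface proteins of brain endothelium, rose by 0.40 ± 0.06 (adjusted p = 7.3e-06) and 0.43 ± 0.10 (adjusted p = 0.0026), and Stab2, a scavenger receptor, by 1.01 ± 0.34 (adjusted p = 0.049, and 0.12 with the GC offset). With DESeq2 or with the GC offset 2 of the 16 were called higher. Without the repeated 0 h libraries Ly6c1 alone of the 3 was called, and the Stab2 call was held in 2 of the 16 fits without 1 library (adjusted p up to 0.17). Of 10 mural cell markers, Tagln and Myl9, contractile proteins of smooth muscle, were called higher, again against 1.94% of all genes (log2 fold change 0.95 ± 0.25 and 0.53 ± 0.17, adjusted p = 0.0098 and 0.043). Both values rested on repeated 2 h replicate 1, with 101 CPM of Tagln against 12 to 19.7 CPM in the other 7 repeated libraries. Without it the log2 fold changes were 0.39 and 0.24 and neither gene was called (adjusted p = 0.22 and 0.32). Myl9 was not called with the GC offset either (adjusted p = 0.19). In the amygdala 4 of 16 endothelial markers were called higher (4.59% over all genes), with a median of 0.25. In the dorsal striatum 7 of 15 were called higher (8.60% over all genes), with a median of 0.38. In both structures 0 were called lower.

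Several genes that glucocorticoids induce rose. Of 14 tested, 5 were called higher and 0 lower, against 1.94% called higher over all genes, the median log2 fold change was 0.20 and 12 of the 14 were above 0. Cdkn1a, the cyclin-dependent kinase inhibitor p21, was at 20.5, 33.7 and 42.2 CPM in acute and at 30.6, 53.9 and 66.7 CPM in repeated libraries (log2 fold change 0.66 ± 0.10, adjusted p = 1.8e-05). Sult1a1, a sulfotransferase, was at 13.6, 17.8 and 28.8 CPM in acute and at 22.3, 28.7 and 37.6 CPM in repeated libraries (0.64 ± 0.11, adjusted p = 1.2e-04). In both genes the ranges overlapped, while the repeated median was above the highest acute value for Cdkn1a and just below it for Sult1a1.

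Tsc22d3, which encodes the anti-inflammatory protein GILZ, rose by 0.33 ± 0.07 (adjusted p = 6.8e-04), and Ddit4, which encodes REDD1, an inhibitor of mTOR complex 1, by 0.39 ± 0.08 (adjusted p = 0.0011). Plin4, a coat protein of lipid droplets named here after its value was seen, rose by 0.64 ± 0.18 (adjusted p = 0.018, and 0.078 with the GC offset). Fkbp5 and Sgk1, targets used often as readouts of the glucocorticoid receptor, were not called (log2 fold change -0.13 ± 0.12 and 0.17 ± 0.11, adjusted p = 0.56 and 0.38). Without the repeated 0 h libraries 5 members were higher, and with the GC offset 4. In the amygdala 7 of 13 tested members were called higher and 0 lower, where 4.59% of all genes were called higher and 4.26% lower, and in the dorsal striatum 5 were higher and 1 lower, where 8.60% of all genes were called higher and 7.35% lower. The mice of all 3 structures came from the same pair of cohorts. By cohort and animal number the 8 repeated mice were the same in all 3 structures. The acute mice were the same in the LH and the amygdala. The 3 structures are therefore not separate sets of mice.

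The promoters of these genes are shown for the half-site AGAACA, to which the glucocorticoid receptor binds, on both strands. Of the 5 members called higher, all of which had a window of 250 bases before to 50 bases after an annotated start in the RefSeq promoters of build GRCm38.p6, 2 held the half-site. By windows these were 2 of 8, and over the whole list 3 of 13 genes and 5 of 22 windows held it, against 19% of all 32851 promoter windows. The third gene was Sgk1, which was not called and had 5 matches in 3 of its windows. The 2 windows of the called genes Sult1a1 and Tsc22d3 read as follows on the strand of the gene, with the half-site or its reverse complement in capitals.
Sult1a1, chr7:126676369-126676668, minus strand: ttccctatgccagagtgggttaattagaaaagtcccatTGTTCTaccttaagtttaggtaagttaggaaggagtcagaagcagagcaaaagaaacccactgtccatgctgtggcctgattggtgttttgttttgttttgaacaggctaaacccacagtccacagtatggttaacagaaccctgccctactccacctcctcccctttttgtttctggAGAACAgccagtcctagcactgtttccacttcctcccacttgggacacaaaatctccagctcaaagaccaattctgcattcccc
Tsc22d3, chrX:140600473-140600772, minus strand: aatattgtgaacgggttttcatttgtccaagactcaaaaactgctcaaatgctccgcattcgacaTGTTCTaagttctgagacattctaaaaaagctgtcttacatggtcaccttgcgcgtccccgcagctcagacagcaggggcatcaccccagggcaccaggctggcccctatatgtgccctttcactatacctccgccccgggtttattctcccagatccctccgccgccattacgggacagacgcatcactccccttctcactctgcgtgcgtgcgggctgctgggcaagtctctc
Sult1a1 held 2 matches and the Tsc22d3 window 1, while the other Tsc22d3 starts and the windows of Cdkn1a, Ddit4 and Plin4 held none. A match of 6 letters is a description of the window and not a binding site.

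Among immediate early genes, which neuronal activity switches on within minutes, Egr1 and Egr3 fell. Of 21 tested, edgeR called 0 higher and 2 lower, where 1.94% of all genes were called higher and 2.61% lower, and DESeq2 called 0 higher and 1 lower. In edgeR 5 had an unadjusted p under 0.05 (23.8% over all genes), and the median log2 fold change was -0.18. Egr1, a transcription factor induced by neuronal activity, was at 63.5 and 63.1 CPM in the acute (naive) mice at 0 h and at 24.1 and 32.3 CPM in the repeated mice at 0 h. At 1 h it was at 83.5 and 78.1 CPM against 82.5 and 55.6 CPM, at 2 h at 66.4 and 60.3 CPM against 56.1 and 42.2 CPM, and at 4 h at 40 and 46.6 CPM against 46.6 and 39.0 CPM. The mice at 0 and 2 h thus did not overlap, while those at 1 and 4 h did. Over all times Egr1 fell by 0.41 ± 0.10 (adjusted p = 0.0058) and Egr3 by 0.47 ± 0.15 (adjusted p = 0.043, and 0.28 with the GC offset). Without the repeated 0 h libraries neither was called, with log2 fold changes of -0.22 and -0.26, and the Egr3 call was held in 6 of the 16 fits without 1 library (adjusted p up to 0.13). Fos had -0.39 ± 0.14 (adjusted p = 0.064), Arc 0.07 ± 0.09 and Npas4 -0.20 ± 0.22. The test of a difference varying with time did not pass for Egr1 or Egr3 (adjusted p = 0.11 and 0.54).

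Among kinases and their partners, Akt1s1 rose and Ptk2b and Ppp1r1b fell, out of 19 tested (median -0.12), where 1.94% of all genes were called higher and 2.61% lower. Ptk2b encodes the calcium-activated tyrosine kinase Pyk2, abundant in forebrain neurons, and was at 42.6, 54.4 and 76.2 CPM in acute and at 24.8, 33.3 and 50.7 CPM in repeated libraries. The repeated median was below every acute value, and the log2 fold change was -0.67 ± 0.11 (adjusted p = 3.0e-05). Of 19 postsynaptic scaffold and CaMKII genes 2 rose and 1 fell, against the same shares of all genes. Shank1, a scaffold of the postsynaptic density, was at 115, 126 and 143 CPM in acute and at 159, 171 and 194.5 CPM in repeated libraries, without overlap (log2 fold change 0.43 ± 0.05, adjusted p = 1.3e-07). Dlg4, which encodes PSD-95, rose by 0.36 ± 0.07 (adjusted p = 6.0e-04), and Camk2a, the alpha subunit of CaMKII that is most abundant in telencephalic neurons, fell by 0.34 ± 0.06 (adjusted p = 1.6e-04). All 3 stayed called with the GC offset and without the repeated 0 h libraries.

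Single channels and receptors of synapses rose or fell. Of 37 calcium, sodium and HCN channel genes 2 rose and 2 fell. Over all genes, the background for each list of channels, receptors and vesicle genes, 1.94% were called higher and 2.61% lower. Cacng2, or stargazin, which brings AMPA receptors to the synapse, was at 43.7 to 70.7 CPM in acute and at 72.1 to 85.7 CPM in repeated libraries, without overlap (0.41 ± 0.07, adjusted p = 4.4e-05), and Cacng7, of the same family, rose by 0.39 ± 0.09 (adjusted p = 0.0022, and 0.05 and not called with the GC offset). Scn4b, the sodium channel beta4 subunit, fell by 0.36 ± 0.08 (adjusted p = 0.0016). Cacna2d1, the calcium channel subunit bound by gabapentin, fell by 0.26 ± 0.07 (adjusted p = 0.0074, and 0.16 with the GC offset), a call held in 7 of the 16 fits without 1 library and lost without both repeated 0 h libraries (adjusted p = 0.063). Of 57 potassium channel genes 1 rose, Kcnk3 (0.29 ± 0.06, adjusted p = 0.0011, and 0.10 with the GC offset), and 1 fell, Kcnj2 (-0.50 ± 0.17, adjusted p = 0.044, and 0.14 with the GC offset). Of 23 glutamate receptor genes 1 fell, Grm5, the metabotropic receptor 5, from 72.7 to 99.6 CPM in acute to 56.0 to 72.5 CPM in repeated libraries (-0.36 ± 0.06, adjusted p = 1.0e-04, and -0.22 and not called with the GC offset). Of 16 GABA receptor genes 1 fell, Gabra4 (-0.32 ± 0.10, adjusted p = 0.039, and 0.43 with the GC offset). Of 27 synaptic vesicle genes 1 fell, the vesicle protein Sv2b (-0.28 ± 0.07, adjusted p = 0.0046). The calls of Kcnj2, Gabra4 and Sv2b were held in 2, 3 and 12 of the 16 fits without 1 library, where the adjusted p of the first 2 reached 0.093 and 0.083 and that of Sv2b 0.017, with a fold change under the threshold. Without both repeated 0 h libraries these 3 genes were not called (adjusted p = 0.15, 0.10 and 0.11).

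Most genes of energy supply and protein synthesis were not called. Of 80 subunits of oxidative phosphorylation 3 rose and 1 fell, where 1.94% of all genes were called higher and 2.61% lower, with a median of 0.10 and 63 of the 80 above 0. An unadjusted p under 0.05 in edgeR was found for 46 of the 80, against 23.8% of all genes. For 9 subunits every repeated library was above every acute library, against 0.718% of all genes. The median was 0.05 with the GC offset and 0.06 without the repeated 0 h libraries. Ndufa3 was at 549 to 747 CPM in acute and at 770.1 to 899 CPM in repeated libraries (0.29 ± 0.04, adjusted p = 2.2e-05), and Atp5e and Atp5k rose by 0.27 ± 0.04 and 0.28 ± 0.05. With the GC offset, or without the repeated 0 h libraries, 0 of the 80 were called higher, since the log2 fold changes of these 3 genes were then 0.18 to 0.23. Ndufs5, of complex I, fell by 0.33 ± 0.07 (adjusted p = 0.0014) and stayed called in both.

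Of 77 cytosolic ribosomal proteins 2 rose (Rpl37a and Rpl41, 0.30 ± 0.04 and 0.26 ± 0.04, of which neither was called without the repeated 0 h libraries, and Rpl41, at 0.15, was not called with the GC offset) and 2 fell, against the same shares of all genes. The median was 0.07, 63 of the 77 were above 0, and 41 had an unadjusted p under 0.05 in edgeR, against 23.8% of all genes. The median was 0.03 with the GC offset and 0.01 without the repeated 0 h libraries. Rpl10 was at 189 to 216 CPM in acute and 126 to 162 CPM in repeated libraries (-0.44 ± 0.05, adjusted p = 2.1e-08), and Rpl15 fell by 0.35 ± 0.06 (adjusted p = 4.4e-05). These 2 genes have 10 and 14 processed pseudogene copies, so their levels are uncertain. Of 17 glycolytic enzymes Pgk1 alone was called (2.61% lower over all genes). Of 18 chaperones of the endoplasmic reticulum 1 rose (1.94% over all genes), Pdia3, a disulfide isomerase (0.49 ± 0.08, adjusted p = 3.0e-05). Of 19 cytosolic and mitochondrial chaperones and 37 proteasome subunits 0 were called by edgeR or DESeq2, and 7 and 17 had an unadjusted p under 0.05 in edgeR, where 23.8% of all genes had one. With the GC offset 1 of these chaperones was called lower, the HSP90 cochaperone Ahsa1 (-0.28, adjusted p = 0.013).

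Among glial markers 2 rose and 1 fell. In the astrocyte and microglial lists, of 13 genes each, 2 and 1 were called, where 4.55% of all genes were. Of the astrocyte markers Aldh1l1, the folate enzyme, rose by 0.26 ± 0.06 (adjusted p = 0.0041), and with the GC offset or without the repeated 0 h libraries it had 0.25 and 0.21 and was not called. The water channel Aqp4 fell by 0.34 ± 0.08 (adjusted p = 0.0041, and 0.25 with the GC offset). Of the microglial markers Tmem119 rose by 0.32 ± 0.08 (adjusted p = 0.0070, and 0.082 with the GC offset), while the list's median was -0.08 and 2 of its 13 genes lay above 0. Tmem119 was not called without both repeated 0 h libraries (adjusted p = 0.061), and with the GC offset Trem2, a microglial lipid receptor named after its value was seen, was called lower (-0.31, adjusted p = 0.036). Of 14 oligodendrocyte markers 0 were called by edgeR or DESeq2 and 5 had an unadjusted p under 0.05 in edgeR, against 23.8% of all genes (median 0.05). Of 16 interferon and antigen presentation genes 1 was called (4.55% over all genes), H2-K1, a class I histocompatibility chain (0.30 ± 0.09, adjusted p = 0.025, and 0.072 with the GC offset and 0.16 without the repeated 0 h libraries), while 15 of the 16 were above 0 and the median was 0.36. The list summed to 529 to 624 CPM in acute and 552 to 919 CPM in repeated libraries, so the ranges overlapped. In the amygdala its median was 0.01 and in the dorsal striatum 0.28.

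Whether the difference between treatments was the same at each time was tested with the 3 treatment by time terms together, 2 mice in each cell. Of 12813 genes 10 were called (0.078%), and Oxt and Ttr had the smallest adjusted p, followed by Slc5a7, Samd3 and Rps29 at 0.0064 each. Oxt, oxytocin of the paraventricular and supraoptic nuclei, was at 815 and 219 CPM in the acute and at 68.0 and 88.0 CPM in the repeated mice at 1 h, and between 82.8 and 242 CPM at all other times (adjusted p = 5.4e-07). The acute 1 h replicate 1 also held 1498 CPM of Avp, vasopressin of the same nuclei, against 162 to 344 CPM in the other 15 libraries. Without it the test still passed for Oxt (adjusted p = 1.8e-05) and not for Avp. Ttr was at 374 and 232 CPM in the naive and at 82.0 and 106 CPM in the repeated mice at 0 h. It was at 185 and 212 against 143 and 121 CPM at 1 h, at 97.9 and 140.4 against 67.8 and 114 CPM at 2 h, and at 120.1 and 138 against 136 and 111 CPM at 4 h, so that the mice parted at 0 and 1 h and overlapped at 2 and 4 h (adjusted p = 0.0015, and 0.061 and 0.086 without acute or repeated 0 h replicate 1).

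Slc5a7, the choline transporter of cholinergic neurons, was at 18 and 16.7 CPM in the acute and at 3.75 and 4.92 CPM in the repeated mice at 1 h. It was at 5.03 and 6.74 against 5.47 and 5.94 CPM at 0 h, at 5.01 and 4.56 against 13.2 and 6.81 CPM at 2 h, and at 7.83 and 19.2 against 2.71 and 4.60 CPM at 4 h. The repeated mice were thus below the acute mice at 1 and 4 h and above them at 2 h (adjusted p = 0.0064, and 0.06 and 0.092 without acute 2 h replicate 2 or repeated 2 h replicate 1). Samd3 was at 1.18 and 1.88 CPM in the acute and at 11.7 and 3.63 CPM in the repeated mice at 2 h, at 4.79 and 4.25 against 2.57 and 2.55 CPM at 0 h, at 11.2 and 7.02 against 0.75 and 2.68 CPM at 1 h, and at 7.23 and 10.2 against 3.31 and 2.91 CPM at 4 h. Its adjusted p was 0.0064, with 0.11, 0.06 and 0.34 without acute 2 h replicate 1, acute 2 h replicate 2 and repeated 2 h replicate 1. The other 6 genes were Avp and, named after their values were seen, Prr7, Six3 and the ribosomal protein genes Rps29, Rps21 and Rps27. In these 3 ribosomal genes both repeated mice were above both naive mice at 0 h. Rps29 was at 1291 and 1298 CPM in the naive and at 2016 and 1783 CPM in the repeated mice at 0 h, at 1429.8 and 1505 against 1625 and 1597 CPM at 1 h, at 1592 and 1547 against 1625 and 1581 CPM at 2 h, and at 1544 and 1605 against 1843 and 1597 CPM at 4 h. The mice parted at 0 and 1 h and overlapped at 2 and 4 h. These 3 were the genes of the 10 that DESeq2 also called (adjusted p = 7.7e-05 for Rps29, 1.2e-04 for Rps21 and 7.7e-05 for Rps27, against 0.0064, 0.019 and 0.02 in edgeR). DESeq2 gave 0.26 for Avp and no adjusted p for the other 6. The 3 genes have 6, 1 and 4 processed pseudogene copies, so their levels are uncertain. Without repeated 0 h replicate 1 none of the 3 was called in edgeR (adjusted p = 0.17, 0.14 and 0.14), nor without acute 0 h replicate 1 (0.061, 0.12 and 0.12). The calls of Prr7 and Six3 were held in 10 of the 16 fits without 1 library and that of Avp in 12, with adjusted p of up to 0.13, 0.24 and 0.72. None of the 6 genes that lead the rises (Metrn, Akt1s1, Ppp1r37, Prmt1, Cadm4 and Prrc2a) passed this test, with adjusted p from 0.22 to 0.93.

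**Figure D4:**
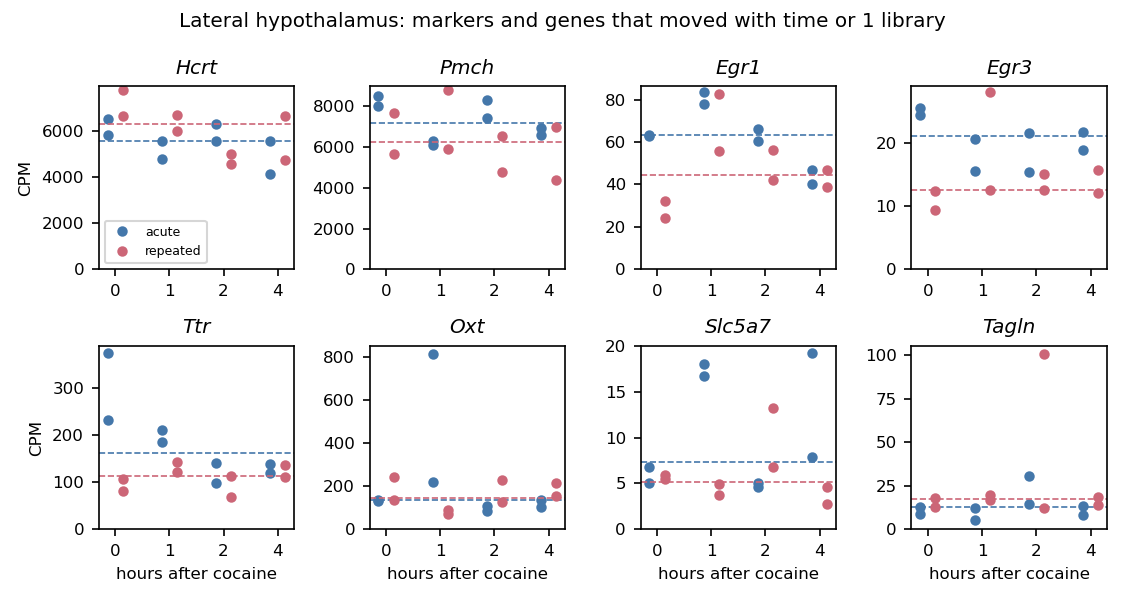
Scaled counts (CPM, vertical axis, from 0) by hours after cocaine (horizontal axis) for 8 genes of the lateral hypothalamus, drawn as 1 point per mouse, blue for acute and red for repeated, with dashed medians of 8 mice. The ranges of 8 mice overlap for Hcrt and Pmch, while the pairs of mice at single times overlap at some times and not at others. At 0 h Egr1 is at 63.5 and 63.1 against 24.1 and 32.3 CPM and Ttr at 374 and 232 against 82.0 and 106 CPM, and a single mouse stands far out for Oxt (815 CPM) and for Tagln (101 CPM).

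The difference in the LH was set against that in the amygdala, from 16 libraries of the same run and the same cohort and animal numbers. The structure by treatment term passed for 89 of 13103 genes (0.679%), with 25 higher (0.191%) and 64 lower (0.488%) in the LH difference. Metrn, Prmt1, Akt1s1 and Ppp1r37 were called higher in both structures, in the amygdala with adjusted p of 1.7e-05, 0.036, 0.0017 and 1.0e-04. The amygdala ranges overlapped for each of the 4, as for Prmt1 (42.2 to 107.2 CPM in acute and 61.6 to 123 CPM in repeated libraries). Metrn had a log2 fold change of 1.10 in the LH and 0.55 in the amygdala (difference 0.54, adjusted p = 0.017), Prmt1 1.12 and 0.34 (difference 0.78, adjusted p = 0.0057) and Akt1s1 1.51 and 0.67 (difference 0.84, adjusted p = 0.043). For Ppp1r37, with 1.12 and 0.66, the difference did not pass (0.46, adjusted p = 0.25).

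Of the 10 telencephalic markers, 5 had a lower and 0 a higher difference in the LH than in the amygdala, where 0.488% of all genes had a lower one, and the median was -0.53. Slc17a7 had -0.00 in the LH and 828.7 to 1077 CPM in the repeated against 425 to 695 CPM in the acute amygdala, without overlap (difference -0.67, adjusted p = 5.0e-05). Tbr1 fell in the LH and rose by 0.30 in the amygdala (difference -0.90, adjusted p = 8.9e-04), Nrn1 had -0.09 there (difference -0.53, adjusted p = 2.0e-04) and Ptk2b -0.11 (difference -0.56, adjusted p = 0.0054). Cck and C1ql3, secreted proteins of neurons, and 3110035E14Rik also had negative differences (-0.69, -0.98 and -0.64, adjusted p = 2.6e-05, 5.0e-05 and 1.9e-04). Ppp1r1b and Pgk1 fell in both (-0.41 and -1.20 in the LH, -0.76 and -1.54 in the amygdala), and neither difference passed the test (adjusted p = 0.39 and 0.73). Of the 16 LH peptides 2 had a higher difference in the LH, Tac1 (0.88, adjusted p = 2.7e-04) and Penk (0.50, adjusted p = 0.041). Cck alone had a lower one, where 0.191% of all genes had a higher and 0.488% a lower one. Tac1 and Penk were not called in the LH. In the amygdala Tac1 was at 80.6 to 98.8 CPM in acute and at 45.5 to 70.1 CPM in repeated libraries. Drd2 had a difference of 1.14 (adjusted p = 4.1e-04).

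Against the dorsal striatum, where 16 acute and repeated libraries came from another run and the acute mice carried other animal numbers of the same cohort, 803 of 13045 genes passed (6.16%), 360 higher (2.76%) and 443 lower (3.40%) in the LH difference. The repeated mice carried the same cohort and animal numbers as in the LH, and the fit took all libraries as separate mice. Akt1s1 had a log2 fold change of -0.18 and Ppp1r37 of -0.11 in the dorsal striatum, neither called, and both differences were large (1.71 and 1.25, adjusted p = 2.6e-10 and 2.0e-11). Metrn and Prmt1 were called higher there as well (0.40 and 0.27) and had differences of 0.72 and 0.87 (adjusted p = 2.3e-05 and 9.8e-06). Pgk1 was at 0.01 and Hnrnpa1 at 0.61 in the dorsal striatum, with differences of -1.20 and -1.80 (adjusted p = 0.0072 and 3.5e-04). The 4 smallest adjusted p belonged to Lpcat4, a lysophospholipid acyltransferase, Ost4, of the oligosaccharyltransferase, Atp6v0b, of the vesicular proton pump, and Shank3, with differences of -2.45, -1.22, -0.72 and -1.15. In the LH itself these 4 genes were not called, with log2 fold changes of 0.02, 0.07, 0.05 and 0.05. Structure and run cannot be told apart in these differences.

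**Figure D5:**
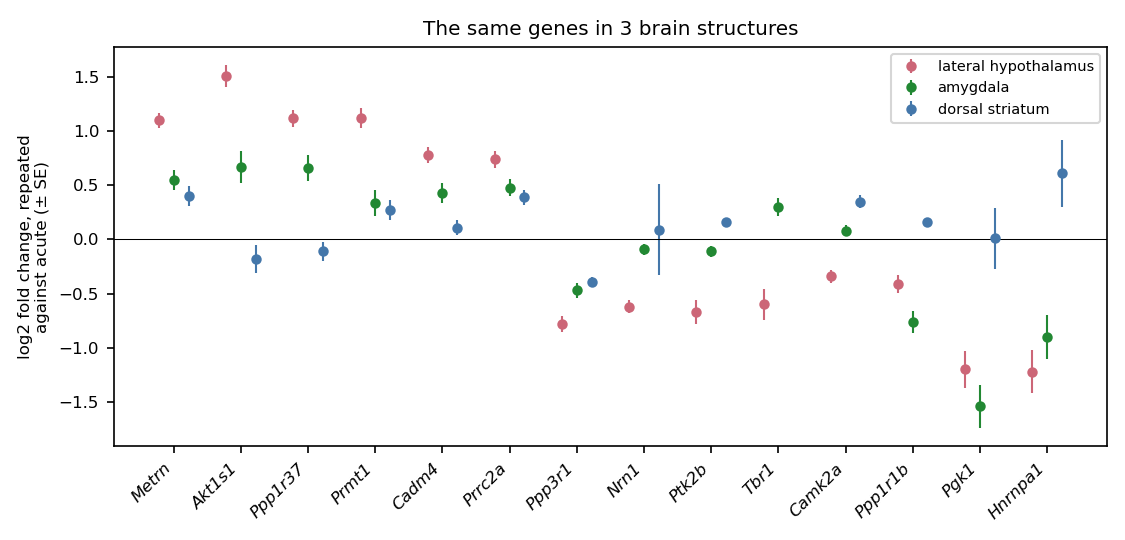
Log2 fold change of repeated against acute mice (vertical axis, points with SE bars) for 14 genes (horizontal axis) in the lateral hypothalamus (red), the amygdala (green) and the dorsal striatum (blue), 8 mice a treatment in each fit. Metrn, Akt1s1, Ppp1r37 and Prmt1 are highest in the lateral hypothalamus, Akt1s1 and Ppp1r37 lie near 0 in the dorsal striatum, and Ppp1r1b and Pgk1 are lowest in the amygdala. Tbr1 has no point for the dorsal striatum, where it was not tested.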

How the data were processed

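Per the labels and the study's methods, RNA of LH tissue was made into 3′-RNA-seq libraries with unique molecular identifiers (UMIs) from 100 ng of RNA. The authors removed duplicate UMIs, trimmed polyA tails, aligned with STAR to GRCm38, counted with HTSeq and deposited raw UMI counts per gene (19363 genes). For their analysis the authors removed libraries with few usable reads and down-sampled very deep ones. Whether the deposited counts are before or after this step is not given in the sources used here. The versions of STAR and HTSeq are not given in the sources used here.

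Genes were filtered with filterByExpr by treatment and time, scaled by TMM and tested with edgeR 4.0.16 quasi-likelihood F tests (R 4.3.3) with time as a factor. Genes were called at a Benjamini-Hochberg adjusted p under 0.05 and a fold change over 1.2. SE is the absolute log2 fold change over the square root of F. DESeq2 1.42.0 was an alternative. The scripts were tested on simulated data. With 8 libraries a side, counting error is small for all but genes of a few CPM. The 2 libraries of each cell differed beyond sampling noise (chi-square per degree of freedom 1.99 to 2.96), so none was counted as a repeat of another.

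The libraries, the 38 gene lists and the naming rule were chosen with earlier results of these data known. The rule named the 12 called genes of largest fold change in each direction, the 8 of smallest adjusted p, up to 4 called members a list (up to 2 of the highest counts where none was called), all LH peptides and substrain genes, the 4 smallest adjusted p of each test of a difference, and Pgk1, Ttr, Ptk2b, Akt1s1, Stab2 and Clec2d. The GC offset was a smoothing spline per library (5 degrees of freedom) on GC content of the last 500 transcript bases (GENCODE M21, GRCm38). Values of some genes that met the rule are not reported here. Processed pseudogene copies were found with blastn 2.17.0 (at least 95% identity over 100 bases). Replicate numbers in the 2 treatments did not pair the mice: deviations of same-numbered libraries correlated at -0.002 to 0.045. LH and amygdala libraries of the same cohort and animal number were taken as 1 mouse, and their deviations correlated at 0.019 to 0.119. The fit with the animal as a block is given with the alternatives. Each library was 1 mouse, and p-values measure the spread between mice of 1 cohort a treatment. Alternatives in scaling, filter, tool, block, times and libraries were run, and the closing section gives their effect.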

Additional observations from a re-analysis of the deposited data

Results flagged for a closer look

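Within a treatment, single libraries stood apart from the other 7 by Dixon's test, which chance alone passes in about 1 in 20 groups. The repeated 4 h replicate 1 was the low library for Akt1s1 (37.0 CPM), Cadm4 (165 CPM), Metrn (129.9 CPM), Prmt1 (75.8 CPM) and Prrc2a (214 CPM). For Akt1s1, Metrn and Prmt1 it was the repeated library nearest to the acute range, and for Cadm4 and Prrc2a it lay within that range. The repeated 2 h replicate 1 was the high library for Tagln (101 CPM), Myl9 (106 CPM) and Slc18a3 (10.6 CPM), and the acute 2 h replicate 1 was the high acute library for Tagln (30.7 CPM) and Myl9 (54.6 CPM). Other single values were Akt1s1 at 34.3 CPM and Ndufa3 at 549 CPM in acute 0 h replicate 1, Cacna2d1 at 90 CPM and Pgk1 at 9.03 CPM in acute 4 h replicate 1, Cacng2 at 43.7 CPM in acute 2 h replicate 1, Egr3 at 28.0 CPM in repeated 1 h replicate 1, Shank1 at 194.5 CPM in repeated 2 h replicate 2 and Stab2 at 7.07 CPM in repeated 0 h replicate 1.

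The difference between treatments varied with time for Oxt (adjusted p = 5.4e-07), Ttr (0.0015), Slc5a7 (0.0064), Samd3 (0.0064), Rps29 (0.0064), Rps21 (0.019), Rps27 (0.02), Avp (0.022), Prr7 (0.022) and Six3 (0.022), by the edgeR test of the 3 interaction terms.

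Among the named genes, the LH difference was larger than the amygdala difference for Akt1s1 (0.84 on the log2 scale), Metrn (0.54), Prmt1 (0.78), Drd2 (1.14), Tac1 (0.88), Scn4b (0.70) and Penk (0.50). It was below it for 3110035E14Rik (-0.64), C1ql3 (-0.98), Camk2a (-0.42), Cck (-0.69), Lamp5 (-0.43), Neurod6 (-0.81), Nrn1 (-0.53), Ptk2b (-0.56), Slc17a7 (-0.67), Sv2b (-0.49) and Tbr1 (-0.90). The adjusted p of these differences from the amygdala were 0.047 or less.

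Against the dorsal striatum the LH difference was larger for Akt1s1 (1.71), Cadm4 (0.69), Metrn (0.72), Ppp1r37 (1.25), Prmt1 (0.87) and Prrc2a (0.38). It was below it for Atp6v0b (-0.72), Hnrnpa1 (-1.80), Krt12 (-1.71), Lamp5 (-0.50), Lpcat4 (-2.45), Mrpl23 (-1.31), Ost4 (-1.22), Pgk1 (-1.20), Ppp1r1b (-0.54), Ppp3r1 (-0.37), Ptk2b (-0.80) and Shank3 (-1.15). The adjusted p of these 18 differences were 0.029 or less.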

How the results depend on the processing

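The 248 genes higher and 335 lower in the repeated mice became 673 and 618 with no fold threshold and 52 and 40 with a threshold of 1.5. In the 0 h mice alone 124 were higher and 44 lower, and the mice at 1 to 4 h alone gave 210 lower. With the GC offset the counts were 146 and 151, with the GC offset and the replicate block 152 and 152, and with the GC offset and without both repeated 0 h libraries 106 and 109. Without those libraries alone 219 were lower. The GC offset and the fits without both repeated 0 h libraries were chosen after seeing the data. DESeq2, other filters, scaling by size factors, thinning, all 24 LH libraries and the replicate block (322 lower) kept both counts within 1.5 times. Leaving out each library in turn gave 199 to 263 higher and 279 to 334 lower. The 10 genes whose difference varied with time became 94 with no filter and 30 with DESeq2, which called Rps29, Rps21 and Rps27 of the 10, did not call Avp (adjusted p = 0.26) and gave no adjusted p for Oxt, Ttr, Slc5a7, Samd3, Prr7 or Six3. They were 3 to 35 without 1 library (3 without acute 2 h replicate 2, 6 without acute 2 h replicate 1 or repeated 0 h replicate 1, and 35, 31, 26, 25 and 20 without repeated 0 h replicate 2, repeated 4 h replicate 2, repeated 4 h replicate 1, acute 0 h replicate 2 and repeated 2 h replicate 2) and 12 with the replicate block. The 89 genes differing from the amygdala became 137 with no filter, 117 with the animal as replicate block (with which no named gene lost this call and Igf2, Npy, Ppp3r1, Slc18a3, Slc5a7 and Ttr gained it) and 68 to 94 without 1 library, and the 803 differing from the dorsal striatum became 738 with the replicate block and 715 to 784 without 1 library. In the 0 h mice alone the log2 fold change of Akr1b3 was 0.02 and of Myl9 -0.15, with turned sign. Of the 75 named genes called, 49 were also called with the GC offset and 45 in all 16 fits without 1 library. The causes of these shifts were not tested.

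Depth limits the precision of genes at a few CPM. Cohort and treatment cannot be told apart in any fit, each time holds 2 mice a treatment, and the ranges of the libraries' dependence on GC content do not overlap between the treatments.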

Other observations

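Some lists held no call in the LH by edgeR or DESeq2, although for oligodendrocyte precursors Enpp6 was called higher with the GC offset (0.38, adjusted p = 0.037) and Gpr17 without both repeated 0 h libraries (0.28, adjusted p = 0.0091). Of 9 markers of oligodendrocyte precursors the median log2 fold change was 0.04, of 9 meningeal fibroblast markers -0.15, of 6 ependymal and tanycyte markers -0.01 and of 5 red blood cell and neutrophil markers 0.26, and 2, 2, 1 and 2 of these lists' members had an unadjusted p under 0.05 in edgeR, where 23.8% of all genes had one. Hba-a1, an alpha globin, had 0.27 ± 0.10 (adjusted p = 0.078). Of 16 clock genes 1 was called, against 4.55% of all genes. It was Bhlhe40, a repressor of the clock, which fell by 0.27 ± 0.09 (adjusted p = 0.047, and 0.52 with the GC offset) and stayed called in 2 of the 16 fits without 1 library (adjusted p up to 0.15), and not without both repeated 0 h libraries (0.13). With the GC offset Nr1d1, the clock repressor REV-ERB alpha, was called lower (-0.29, adjusted p = 0.0077).

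Nnt, a mitochondrial transhydrogenase whose gene differs among C57BL/6 substrains, was at 3.54 to 7.02 CPM in acute and at 2.90 to 6.80 CPM in repeated libraries (log2 fold change 0.00 ± 0.23, adjusted p = 0.99).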
